A study of Mus musculus with 60 samples.

Results

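The Hox genes of the mouse were followed across lung, liver and forestomach and across doses of benzo(ghi)perylene (BghiP), a polycyclic aromatic hydrocarbon given by mouth. Members were all genes whose symbol, found through the RefSeq accession of a probe, was Hox followed by the cluster letter a, b, c or d and a number. The rule found 39 genes among 20018 genes with a symbol on the array, and 43 of the 55681 probes, with a second probe for 4 genes. Each gene is given by its brightest probe, the one with the highest mean Cy5 signal. RNA came from male Muta Mouse animals of about 10 weeks, a strain that carries a bacterial lacZ reporter in every group. All mice were gavaged for 28 days with olive oil, the vehicle alone at D0 or with BghiP at 6.25 (D1), 12.5 (D2) or 25 (D3) mg/kg-bw/day, and tissues were taken 72 h after the final dose. Each dose held 5 mice and each mouse gave the 3 tissues, for 60 arrays in 12 groups. Tissue RNA was labelled with Cy5 and hybridised beside Cy3-labelled reference RNA pooled from 11 mouse cell lines, and a value here is the log2 ratio of Cy5 to Cy3. A ratio is a level relative to the reference and was compared between arrays for 1 probe, never between probes.

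Hox genes encode homeodomain transcription factors and lie in 4 clusters, HoxA to HoxD, on different chromosomes. Within a cluster the order of the genes along the DNA matches the order in which they are switched on along the head-to-tail axis of the embryo, with low numbers anterior and high numbers posterior, and genes of the same number in different clusters are called paralogues. Adult organs keep much of the Hox pattern of their embryonic position, largely in fibroblasts, smooth muscle and other mesenchymal cells, and Hoxa5 and Hoxb5 are known for their part in lung and airway development. PBX, MEIS and PKNOX proteins bind DNA together with Hox proteins, retinoic acid activates anterior Hox genes in the embryo, and Polycomb and Trithorax complexes keep the genes silent or active.

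Promoter sequences were read from RefSeq (GRCm38.p6). They are shown for 1 member each of clusters A, B and C that was called between tissues, picked after values and motif counts were known. The table gave 24 windows for 22 of the 39 Hox genes, each running from 250 bases before to 50 bases after a gene's start. They are printed 5′ to 3′ on the strand of the gene, with matches on either strand to any of the searched motifs in capitals. Hoxa5 lies on chr6:52204538-52204837 (minus strand), Hoxb4 on chr11:96318017-96318316 (plus strand) and Hoxc4 on chr15:103034145-103034444 (plus strand).
Hoxa5: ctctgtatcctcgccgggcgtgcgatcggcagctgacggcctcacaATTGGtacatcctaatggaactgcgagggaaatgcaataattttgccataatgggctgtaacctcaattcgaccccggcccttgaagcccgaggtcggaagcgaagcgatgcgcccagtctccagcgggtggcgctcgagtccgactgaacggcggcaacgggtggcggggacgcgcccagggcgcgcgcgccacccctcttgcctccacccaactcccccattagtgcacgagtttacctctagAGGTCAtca
Hoxb4: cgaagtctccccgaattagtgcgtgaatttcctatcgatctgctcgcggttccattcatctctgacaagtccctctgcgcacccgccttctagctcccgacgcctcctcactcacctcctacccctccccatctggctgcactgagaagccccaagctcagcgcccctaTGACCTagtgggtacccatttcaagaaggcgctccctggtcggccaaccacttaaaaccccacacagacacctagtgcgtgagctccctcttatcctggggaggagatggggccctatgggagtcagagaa
Hoxc4: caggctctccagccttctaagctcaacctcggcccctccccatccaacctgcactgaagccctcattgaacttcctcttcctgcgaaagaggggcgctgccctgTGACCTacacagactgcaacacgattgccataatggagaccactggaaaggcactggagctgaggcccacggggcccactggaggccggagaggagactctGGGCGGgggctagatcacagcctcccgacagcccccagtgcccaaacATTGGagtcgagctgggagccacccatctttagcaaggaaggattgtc
The searched motifs were TATAAA (the TATA box), CCAAT (the CCAAT box), GGGCGG (the GC box), TAATTA (a homeodomain core), TGATTNAT (the joint site of PBX and Hox proteins) and AGGTCA (the element that nuclear receptors bind, retinoic acid receptors among them). AGGTCA was present in 7 of the 24 Hox windows and in 16.3% of all 32851 windows, and the windows of Hoxa5, Hoxb4, Hoxc4 and Hoxd8 each held it. The windows of Hoxa2, Hoxa3, Hoxa6, Hoxa7, Hoxa9 and Hoxb8, which were called between tissues as well, held none. The CCAAT box was present in 15 Hox windows (37.4% of all), the GC box in 10 (35.7%) and the TATA box in 4 (13.6%). The homeodomain core and the joint site were present in 2 each (5.29% and 3.22% of all). The Hox windows held a median of 14.5 CG dinucleotides, from 4 to 45, beside a median of 7 in all windows. These matches are a description of the letters, not of binding.

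Tissue identity followed the labels. The mean over 8 lung epithelium markers was 6.03 to 6.90 in lung, that over 8 liver parenchyma markers 7.47 to 8.52 in liver, and that over 8 markers of squamous epithelium 3.75 to 5.30 in forestomach. The share of probes well above background in Cy5 was 34.9% to 58.6% over the lung arrays, 36.3% to 48.3% over the liver arrays and 21.3% to 53.3% over the forestomach arrays. Markers of other tissues stood out on a few arrays. The lung array of vehicle mouse 1 had the skeletal muscle markers at 4.55 and the squamous markers at 3.88, where the next lung arrays were at 0.16 and 0.08. The lung array of D3 mouse 20 had the liver markers at 4.42 (next 1.14), and the forestomach array of vehicle mouse 2 had the lung markers at 4.70 (next 1.84). Lung and forestomach arrays shared 5 slides and liver arrays lay on 3 others, so tissue and slide cannot be told apart where liver is compared. Each dose also kept its own column on every slide, so dose and column cannot be told apart.

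Of the 39 Hox genes, 16 reached a Cy5 signal well above background on 5 or more lung arrays, while 9 did so in liver and 21 in forestomach, and no gene passed in lung or liver that did not pass in forestomach. Of all 55681 probes, 31022 did so in lung, 25893 in liver and 25070 in forestomach. Genes of the anterior numbers made up most of the Hox genes that passed. Of 23 genes numbered 1 to 8, 14 were above background on 5 or more arrays in lung, 7 in liver and 19 in forestomach, against 2 of 16 genes numbered 9 to 13 in each tissue (Hoxa9 and Hoxc13). In lung 11 genes were above background on all 20 arrays, among them Hoxa2, Hoxa3, Hoxa5, Hoxa6, Hoxa7, Hoxb2, Hoxb4, Hoxb5, Hoxb6 and Hoxb7. In forestomach these were Hoxb6, Hoxc4, Hoxc5 and Hoxc6, and in liver no Hox gene reached all 20 arrays. Detection of HoxC differed between the tissues, since among its 4 genes numbered 4 to 8 those above background on 5 or more arrays were 1 in lung, 0 in liver and 4 in forestomach. HoxD was mostly below background, with 1 of 9 genes (Hoxd8, on 6 forestomach arrays) past 5 arrays in any tissue.

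**Figure D1:**
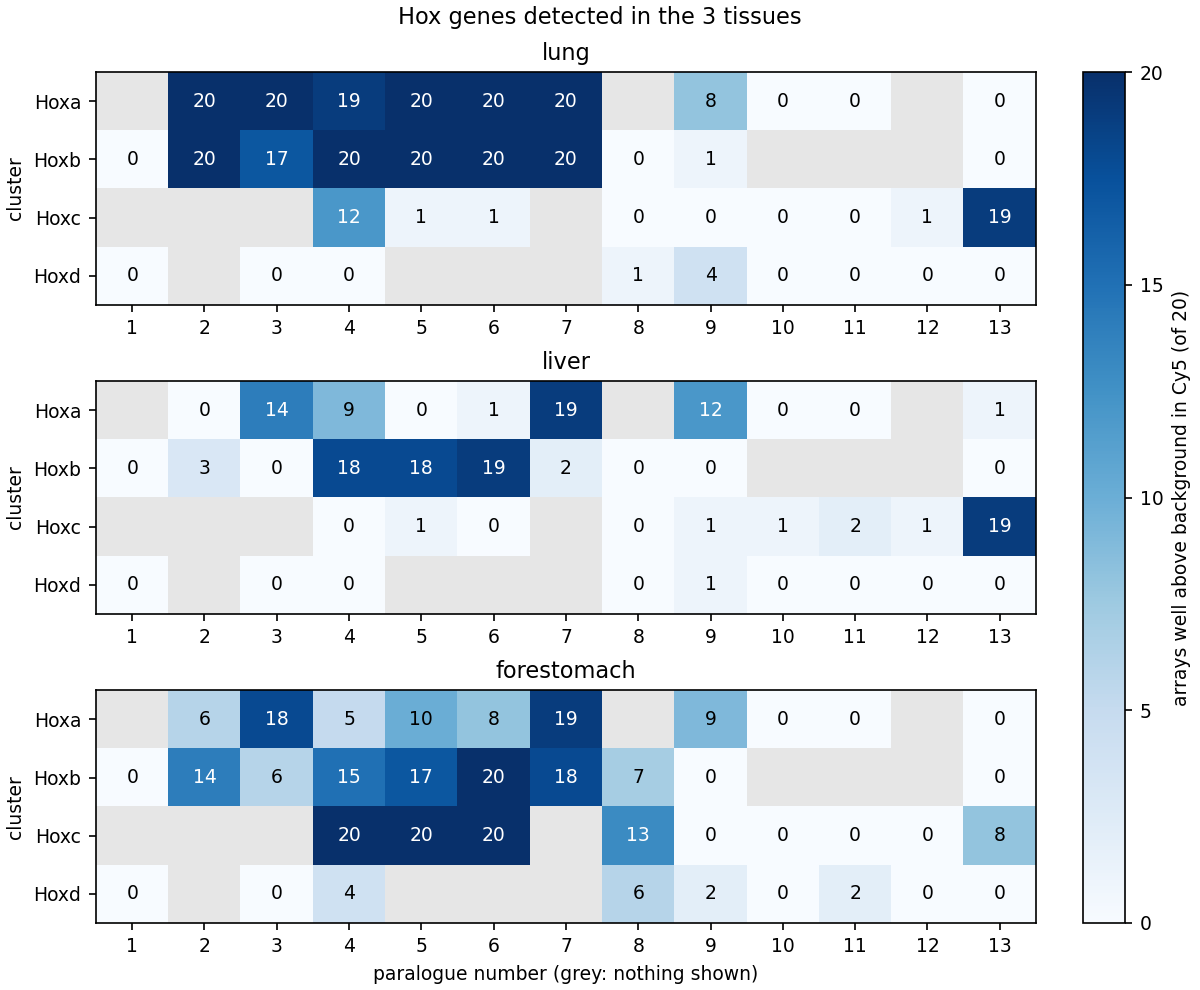
Number of the 20 arrays of each tissue (panels: lung, liver, forestomach) on which each Hox gene was well above background in Cy5, with clusters A to D as rows, paralogue numbers 1 to 13 as columns and grey where nothing is shown. Lung reached 20 arrays for most genes of clusters A and B numbered 2 to 7, forestomach added Hoxc4, Hoxc5 and Hoxc6 on all 20 arrays, and numbers 10 to 12 were at 2 arrays or fewer in every tissue.

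The remaining 18 genes were not tested between tissues. Hoxa10, Hoxa11, Hoxb1, Hoxb13, Hoxd1, Hoxd3, Hoxd10, Hoxd12 and Hoxd13 were above background in Cy5 on no array. Hoxd4 and Hoxd9 reached 4 arrays in a single tissue, and Hoxa13, Hoxb9, Hoxc9, Hoxc10, Hoxc11, Hoxc12 and Hoxd11 reached 1 or 2. Most Hox probes did give signal in the reference RNA, where 30 of the 39 genes were above background on 58 or more of the 60 arrays, 9 of them genes that were not tested in any tissue. Hoxb1, Hoxd1, Hoxd12 and Hoxd13 were above background in neither channel, so nothing can be said of their levels.

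Hoxa5 and Hoxb5 stood highest in lung. Hoxa5 (NM_010453), a regulator of lung and airway formation, had values in lung with a lowest of 1.24, a median of 1.91 and a highest of 2.52, against -0.58, 0.05 and 0.96 in forestomach and -1.23, -0.89 and -0.34 in liver. Every lung value lay above every forestomach value, and the gene was above background on 20 lung, 10 forestomach and 0 liver arrays. Hoxa5 was therefore at least 5.63-fold higher in lung than in liver, and its lung minus forestomach difference was 1.78 ± 0.097 (SE), with an adjusted p of 5.42e-23. Its paralogue Hoxb5 (NM_008268) spread from 2.02 to 2.63 in lung with a median of 2.21, from -0.27 to 1.60 in forestomach with a median of 0.44, and from -0.89 to -0.35 in liver with a median of -0.51. The 20 lung values of Hoxb5 again stood clear of both other tissues. The lung minus liver difference of Hoxb5 was 2.77 ± 0.099 (adjusted p = 1.24e-31) and the lung minus forestomach difference 1.68 ± 0.099 (adjusted p = 1.53e-21), or 6.83-fold and 3.21-fold.

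Hoxa3 (NM_010452), a gene known for its part in the thymus, parathyroid and neck, came next in order of the tissues. Its lung values ran from 0.28 to 1.26 (median 0.63), those of forestomach from -0.70 to 1.14 (median -0.04) and those of liver from -1.83 to -1.22 (median -1.62). Lung and forestomach overlapped in range, and both lay wholly above liver. The lung minus liver difference of Hoxa3 was 2.27 ± 0.096 (4.82-fold), and the lung minus forestomach difference 0.70 ± 0.096 (1.62-fold). Hoxb4 (NM_010459), widely studied in blood stem cells, showed the same order, with medians of 0.76 in lung, -0.13 in forestomach and -1.14 in liver and ranges of 0.16 to 1.19, -0.90 to 0.64 and -1.52 to -0.67. Its lung values exceeded those of liver by 1.81 ± 0.092 and those of forestomach by 0.83 ± 0.092 on the log2 scale.

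Hoxa7 and Hoxb6 were near equal in lung and forestomach or somewhat higher in forestomach, and low in liver. Hoxa7 (NM_010455) spanned -0.35 to 1.33 in lung with a median of 0.46, -1.04 to 1.54 in forestomach with a median of 0.30, and -2.24 to -1.28 in liver with a median of -1.83. Its liver values lay below all others, the lung minus liver difference was 2.25 ± 0.14 and the liver minus forestomach difference -2.09 ± 0.14, whereas lung minus forestomach was 0.17 ± 0.14 (adjusted p = 0.258). Hoxb6 (NM_008269) spanned -0.55 to 0.13 in lung (median -0.10), -0.42 to 1.47 in forestomach (median 0.38) and -2.00 to -1.13 in liver (median -1.59). Liver again stood apart below, at 1.42 ± 0.10 under lung. The lung minus forestomach difference of Hoxb6 was -0.59 ± 0.10 (1.51-fold, adjusted p = 8.35e-07), just past the 1.5-fold needed for a call, and leaving out any 1 of 9 mice took it below that fold.

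Among the weaker members, Hoxa2 was above background on 20 lung, 6 forestomach and 0 liver arrays and at least 1.68-fold higher in lung than in liver. Hoxb2, which like Hoxa2 patterns the hindbrain, ran from -0.09 to 0.90 in lung with a median of 0.46, from -0.34 to 1.38 in forestomach with a median of 0.22, and from -1.24 to -0.35 in liver with a median of -0.86. Lung and liver did not overlap for either gene, and the measured values of Hoxb2 differed between them by 1.30 ± 0.093, with 3 of 20 liver arrays above background. Hoxa6 had medians of 0.34 in lung, 0.07 in forestomach and -0.40 in liver, with a measured difference of 0.74 ± 0.068 between lung and liver and 1 of 20 liver arrays above background. Hoxb3 was above background on 17 lung, 6 forestomach and 0 liver arrays and at least 1.52-fold higher in lung than in liver.

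**Figure D2:**
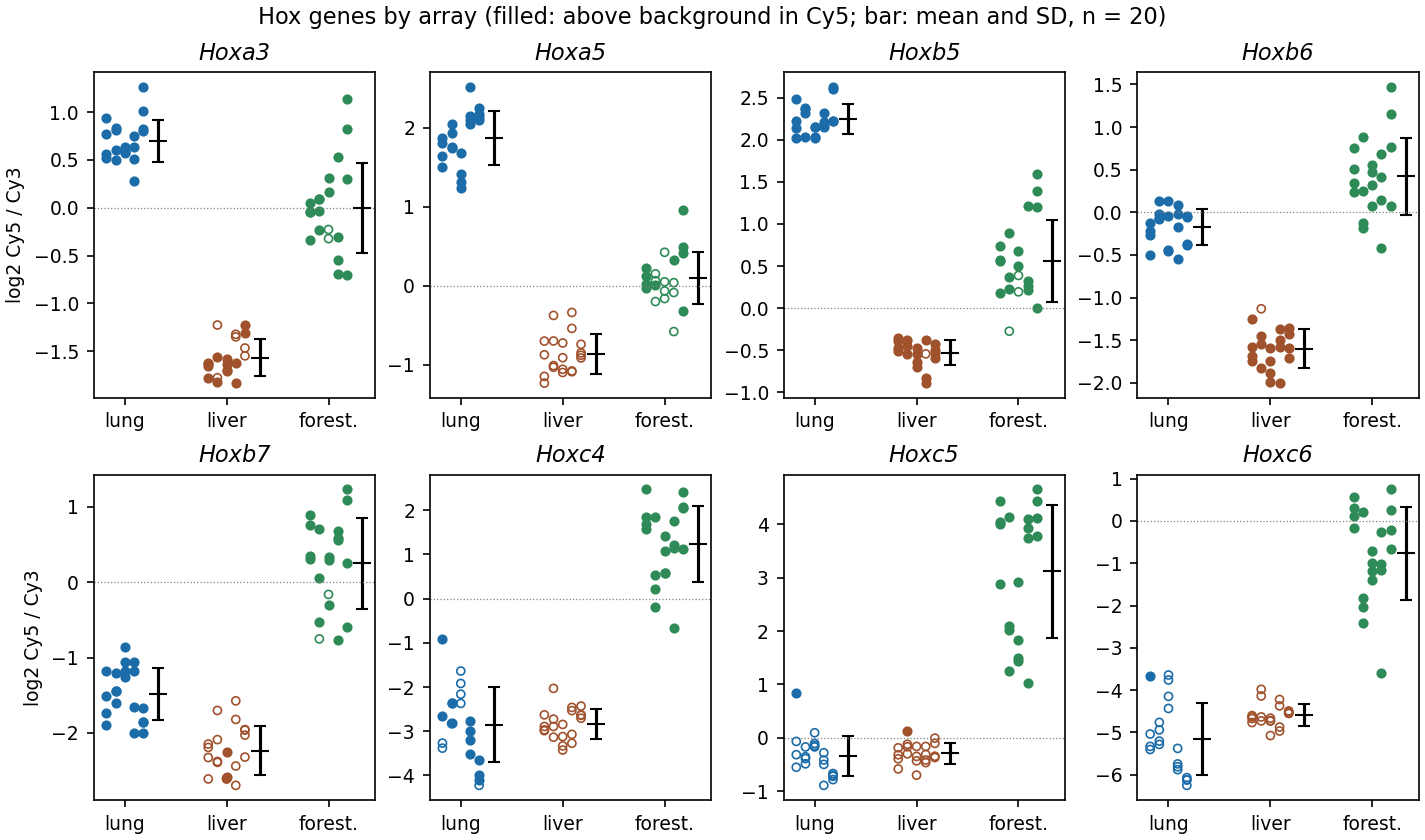
Log2 ratio of Cy5 to Cy3 (vertical axis) on each of the 60 arrays for Hoxa3, Hoxa5, Hoxb5, Hoxb6, Hoxb7, Hoxc4, Hoxc5 and Hoxc6, by tissue, with filled points for arrays well above background and a bar for the mean ± SD over 20 arrays. Lung points of Hoxa5 and Hoxb5 lie above those of both other tissues, and forestomach points of Hoxb7, Hoxc4, Hoxc5 and Hoxc6 lie above those of lung and liver.

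Hoxc4, Hoxc5, Hoxc6 and Hoxc8 were highest in forestomach. Hoxc6 (NM_010465), whose anterior limit in the embryo marks the passage from neck to thorax, had forestomach values with a lowest of -3.59, a median of -0.68 and a highest of 0.75, lung values of -6.25, -5.31 and -3.64, and liver values of -5.07, -4.63 and -3.98. All 20 forestomach values lay above all values of the other tissues, although the lowest of them came close to the highest lung value. Hoxc6 was above background on 1 lung array and no liver array. The difference of the measured values was -4.38 ± 0.25 for lung minus forestomach and -3.83 ± 0.25 for liver minus forestomach. The gene entered the test through forestomach alone, so both are a description, with the lung level close to a bound and the liver level no more than one. Hoxc5 (NM_175730) ran from 1.02 to 4.66 in forestomach with a median of 3.77, from -0.89 to 0.83 in lung with a median of -0.37, and from -0.70 to 0.13 in liver with a median of -0.31. It was above background on all 20 forestomach arrays and on 1 array in each of the other tissues. The measured values differed by -3.46 ± 0.23 for lung minus forestomach and by -3.41 ± 0.23 for liver minus forestomach. Hoxc5 also entered the test through forestomach alone, and with 1 array above background in lung and in liver no fold is drawn from these differences.

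Hoxc4 (NM_013553), which lies at the anterior end of its cluster, spanned -0.67 to 2.47 in forestomach (median 1.32), -4.23 to -0.92 in lung (median -2.82) and -3.43 to -2.03 in liver (median -2.87). Forestomach stood above both, though the highest lung value came close to the lowest forestomach value. The measured lung minus forestomach difference of Hoxc4 was -4.10 ± 0.23 (adjusted p = 8.79e-23), with 12 of 20 lung arrays above background, and forestomach was at least 14.3-fold higher than liver, where no array was above background. Hoxc8, which patterns the thoracic skeleton, was above background on 13 forestomach arrays and on none of lung or liver, and forestomach was at least 3.04-fold higher than lung and at least 2.60-fold higher than liver. Hoxc8 entered the test through forestomach alone, and its forestomach mean includes arrays at background, so these folds are a description only. In lung the Hoxc4 and Hoxc6 ratios also moved with the slide. On slide 5 the 4 lung values were -4.23 to -3.66 for Hoxc4 and -6.25 to -6.07 for Hoxc6, and on slide 2 they were -2.37 to -1.64 and -4.43 to -3.64, with no array above background for either gene on slide 2. Hoxa5 moved by slide in lung in the other direction, at 2.10 to 2.25 on slide 5 and 1.24 to 1.68 on slide 2. The reference was bright for these HoxC probes where lung was dim, and the ratios are of median signals that still hold the background. The part of array brightness in the lung levels was not tested.

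Hoxb7 (NM_010460) was highest in forestomach as well. It ran from -0.77 to 1.23 in forestomach with a median of 0.32, from -2.00 to -0.86 in lung with a median of -1.48, and from -2.70 to -1.57 in liver with a median of -2.29. The lowest forestomach value lay just above the highest lung value, and lung and liver overlapped. Hoxb7 differed by -1.73 ± 0.14 between lung and forestomach (3.32-fold, adjusted p = 9.57e-17), by -2.48 ± 0.14 between liver and forestomach and by 0.75 ± 0.14 between lung and liver, with 2 of 20 liver arrays above background. The last of these did not reach 1.5-fold on the deposited ratios (0.58). Within cluster B the sign of the lung minus forestomach difference thus changed along the numbers, from 0.83 for Hoxb4 and 1.68 for Hoxb5 to -0.59 for Hoxb6 and -1.73 for Hoxb7. In cluster A the same difference was 0.70 for Hoxa3, 1.78 for Hoxa5, 0.17 for Hoxa6 and Hoxa7 and -0.65 for Hoxa9. The call of Hoxa9 was lost when mouse 9 was left out. The change of sign is a description over the members in their order along the cluster and was not tested as such.

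Over the 21 tested members, limma called 12 higher and 0 lower in lung than in liver, where a call needed 1.5-fold or more and an adjusted p no higher than 0.05. Of all 33255 probes tested 26.2% were called higher and 19.4% lower in this comparison, and the median difference was 0.74 for the Hox genes and 0.06 for all probes. Between lung and forestomach 4 members were higher in lung (Hoxa3, Hoxa5, Hoxb4 and Hoxb5), where 18.8% of all probes were called, and 9 were lower (Hoxa9, Hoxb6, Hoxb7, Hoxb8, Hoxc4, Hoxc5, Hoxc6, Hoxc8 and Hoxd8), where 15.7% of all probes were called. Between liver and forestomach 0 members were higher in liver (17.5% of all probes) and 15 were lower (21.5%), and all 21 differences were negative with a median of -0.98. All 21 members had passed the filter in forestomach, 16 in lung and 9 in liver, and Hoxb8, Hoxc5, Hoxc6, Hoxc8 and Hoxd8 had passed in forestomach alone. The filter thus fixed in part that lung and liver were the lower, and these counts are a description only. Some called members had few forestomach arrays above background, namely Hoxb3 and Hoxd8 (6 arrays each), Hoxb8 (7) and Hoxa9 (9). Forestomach was at least 1.65-fold higher than lung for Hoxb8, and for Hoxb3 at least 1.48-fold higher than liver, which is under the 1.5-fold of a call.

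Members whose 20 values in 1 tissue lay wholly apart from the 20 of another were also counted. Every lung value lay above every liver value for 9 of the 21 members (Hoxa2, Hoxa3, Hoxa5, Hoxa7, Hoxb2, Hoxb3, Hoxb4, Hoxb5 and Hoxb6), as for 20.7% of all probes. Of these 9, Hoxa2, Hoxa5, Hoxb2 and Hoxb3 had not passed the filter in liver. Lung lay wholly above forestomach for Hoxa5 and Hoxb5 (9.29% of all probes) and wholly below for Hoxb7, Hoxc4, Hoxc5, Hoxc6 and Hoxc8 (5.24%), the last 3 of which passed the filter in forestomach alone. Liver lay wholly below forestomach for 10 members (12.2%), which were those 5 with Hoxa3, Hoxa7, Hoxb2, Hoxb5 and Hoxb6. Of these 10, Hoxb2, Hoxb7 and the HoxC members had not passed the filter in liver. The filter thus fixed these counts in part, and they are a description only. Members that were not called in any pair of tissues were Hoxa4, with medians of 0.29 in lung, -0.13 in liver and 0.06 in forestomach, and Hoxc13, a hair and nail gene, with -1.09, -0.97 and -0.73.

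**Figure D3:**
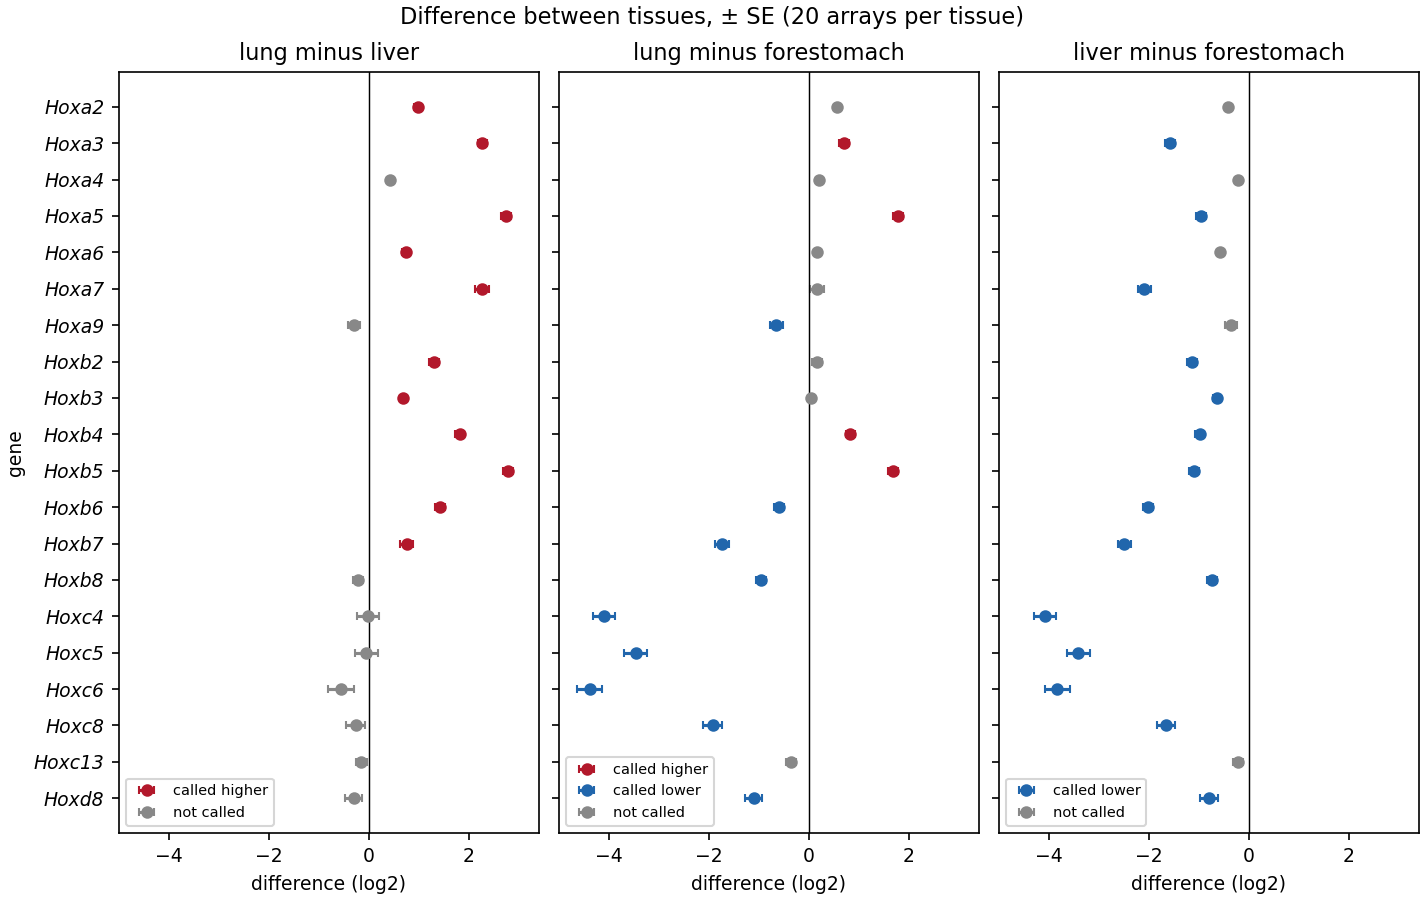
Difference in log2 ratio ± SE for tested Hox genes between lung and liver, lung and forestomach, and liver and forestomach (20 arrays per tissue). Lung minus liver is positive for most members of clusters A and B, lung minus forestomach turns from 1.78 at Hoxa5 to -4.38 at Hoxc6, and every liver minus forestomach difference is below 0.

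Markers of several cell types moved with these patterns. The mean over 8 fibroblast and mesenchyme markers was 0.17 to 1.30 in lung, 0.08 to 1.59 in forestomach and -2.04 to -1.60 in liver, so that it was lowest in liver, as were Hoxa3, Hoxa5, Hoxa7, Hoxb4, Hoxb5 and Hoxb6. At least 7 of those 8 markers were above background on every array of each tissue. Taken singly, 6 were called higher and 1 lower in lung than in liver (26.2% and 19.4% of all probes). Between lung and forestomach 3 were higher and 3 lower (18.8% and 15.7%), and between liver and forestomach 0 and 7 (17.5% and 21.5%). Smooth muscle markers were at 3.50 to 5.37 in forestomach, 0.13 to 1.37 in lung and -1.95 to -1.46 in liver, with forestomach highest as for Hoxb7, Hoxc4, Hoxc5 and Hoxc6. Mesothelium markers were at -0.35 to 1.38 in lung, -1.12 to 0.59 in forestomach and -2.68 to -2.20 in liver. Heart muscle markers ran in the order of Hoxa5 and Hoxb5, with medians of 3.13 in lung, 0.59 in forestomach and -0.43 in liver. Markers of endothelium (4.01 in lung, 0.86 in forestomach and 1.49 in liver) and of blood cells (1.81, 0.16 and 1.02) were highest in lung too, and those of lung epithelium itself were at 6.45, 0.77 and 0.29. Squamous (4.36), glandular stomach (5.12), fat cell (1.85) and skeletal muscle markers (0.28) had their highest medians in forestomach, like Hoxb7, Hoxc4, Hoxc5 and Hoxc6, and fat cell markers were at 1.55 in lung and 0.42 in liver. In bulk tissue a smaller share of cells that express a gene cannot be told apart from less RNA per cell, and the part of cell makeup in the Hox differences was not tested.

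Among the tested Hox genes, forestomach arrays varied most for Hoxc4, Hoxc5, Hoxc6 and Hoxc8, while Hoxc13 had an SD within dose groups of 0.343. The SD within dose groups was 1.22 for Hoxc5, 1.11 for Hoxc6, 0.96 for Hoxc8 and 0.83 for Hoxc4, where the median over all probes tested in forestomach was 0.293. Markers of the glandular stomach, which adjoins the forestomach, varied beside them. Their mean over 7 genes was 0.26 to 1.58 on 7 forestomach arrays and 2.61 to 7.74 on the other 13. Hoxc6 had a median of 0.22 on the 7 arrays with low glandular markers (-1.01 to 0.75) and of -1.15 on the other 13 (-3.59 to 0.27). Hoxc5 had medians of 4.05 and 2.09 on the same arrays, and Hoxc4 of 1.84 and 1.08. The array with the highest glandular level, D1 mouse 9 at 7.74, had the lowest values of Hoxc4, Hoxc5 and Hoxc6 and the highest of Hoxa9. Hoxa9, known from blood progenitors and leukaemia, ran the other way and was above background on 0 of the 7 arrays and on 9 of the 13. On the 7 arrays alone, an alternative chosen after the data had been seen, Hoxc6 differed from lung by -5.30 and Hoxc4 by -4.78, and of the 13 calls between lung and forestomach that of Hoxa9 was lost.

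**Figure D4:**
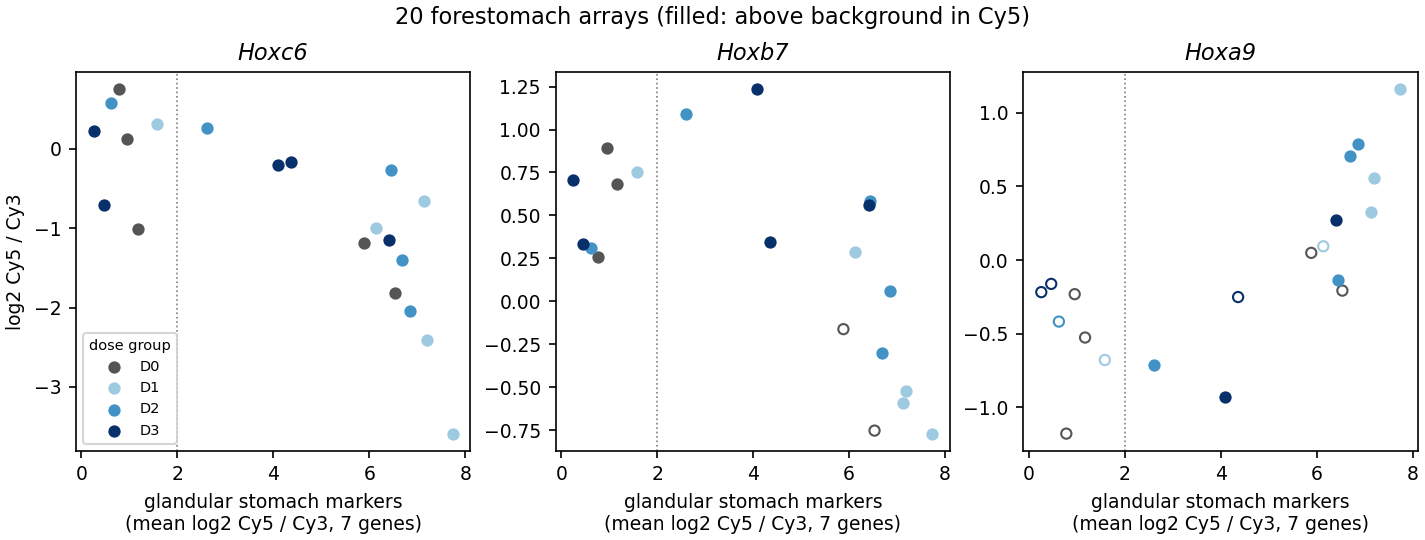
Log2 ratios of Hoxc6, Hoxb7 and Hoxa9 (vertical axes) on the 20 forestomach arrays against the mean log2 ratio of 7 glandular stomach markers (horizontal axis), with a dotted line at 2. Left of the line, 7 arrays have Hoxc6 at -1.01 or more and Hoxa9 at -0.16 or less, and the array at 7.74 has the lowest Hoxc6 (-3.59) and the highest Hoxa9 (1.16).

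The lung array of vehicle mouse 1, with its skeletal muscle and squamous markers, stood apart for HoxC as well. It had the highest lung values of Hoxc4 (-0.92) and Hoxc5 (0.83), and it was the only lung array with Hoxc5, Hoxc6 or Hoxd8 above background. Without this array and the forestomach array of vehicle mouse 2, a choice made after the data had been seen, the calls numbered 13 for lung minus liver, 13 for lung minus forestomach and 15 for liver minus forestomach. The call gained was Hoxc6, lower in lung than in liver at -0.62, where neither tissue then had an array above background. The squamous and skeletal markers' part in the lung HoxC values was not tested.

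Second probes bore on 2 genes. The second probe of Hoxb3 was above background on 16 lung arrays and 1 liver array and gave a lung minus liver difference of 0.47 ± 0.052, under the 1.5-fold needed, where the brighter probe gave 0.69 ± 0.065. The second probe of Hoxa9 was above background on 4 lung arrays and no other and was not tested. The second probe of Hoxa13 was at 1 array or fewer in every tissue. By the RefSeq gene spans Hoxa3 overlaps Hoxa4, Hoxa5 and Hoxa6, Hoxb3 overlaps Hoxb4, and several members overlap antisense transcripts, so that a probe named for one of these may in part read a neighbour. Where each probe lies was not used here.

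Partners and regulators were taken from lists beside the members. Of 9 genes for the PBX, MEIS and PKNOX cofactors, 5 were higher in lung than in liver (26.2% of all probes) with a median difference of 1.36, and 4 were lower in liver than in forestomach (21.5% of all probes) with a median of -0.30. Meis1, which binds DNA with Hox proteins, differed by 2.83 ± 0.12 between lung and liver and by -2.91 between liver and forestomach. Pbx3 gave 2.65 and -2.51 and Meis2 1.59 and -1.86 in the same comparisons, while Pknox2 (3.00 and 2.10) and Pbx2 (1.36 and 1.06) were higher in lung than in liver and than in forestomach. All 8 upstream and ParaHox homeobox genes (Cdx1, Cdx2, Cdx4, Gsx1, Gsx2, Pdx1, Evx1 and Evx2) were above background on too few arrays to be tested.

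Of 12 tested genes for retinoic acid synthesis, breakdown and reception, 3 were higher and 1 lower in lung than in liver, beside 26.2% and 19.4% of all probes. Lung minus forestomach gave 5 higher and 4 lower (18.8% and 15.7% of all probes), and liver minus forestomach 4 higher and 5 lower (17.5% and 21.5%). Aldh1a2, the main embryonic enzyme of retinoic acid synthesis, differed by 4.22 ± 0.12 between lung and liver and by -2.57 between liver and forestomach. Cyp26a1, which breaks retinoic acid down, differed by -3.07 between lung and liver, and the receptor gene Rarg by 2.16. Of 15 tested Polycomb genes 6 were higher and 1 lower in lung than in liver, against the same shares of all probes, among them Cbx6 (1.99), Phc2 (1.72) and Ezh1 (1.49) above and Cbx2 (-1.03) below. Between lung and forestomach 5 were higher in lung and 2 lower (18.8% and 15.7% of all probes), the latter being Ezh2, the main methyltransferase of the complex (-1.08), and Cbx2 (-0.93). Of 8 tested Trithorax and H3K27 demethylase genes 1 was higher and 1 lower in lung than in liver, namely Kdm6b (1.59) and Wdr5 (-0.64), a share below that of all probes in both directions.

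Genes that flank the clusters did not share 1 tissue pattern. Of 10 tested, 4 were higher in lung than in liver (Skap1, Skap2, Cbx5 and Tax1bp1) and 2 lower (Hibadh and Mtx2), beside 26.2% and 19.4% of all probes. Skap2, beside HoxA, was higher in lung than in both other tissues, by 1.39 over liver and 1.32 over forestomach, while its difference between liver and forestomach was -0.06. Hibadh, also beyond HoxA, differed by -2.72 between lung and liver.

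BghiP did not bring any Hox gene past the test in any tissue. The dose comparisons asked which genes differed from the vehicle group after 28 days. At D1, D2 and D3, limma called 0 of the 16 lung members (0% of 31022 probes at each dose), 0 of the 9 liver members (0% of 25893) and 0 of the 21 forestomach members (0% of 25070). The study itself, by another test (MAANOVA) at the same thresholds, reported called genes for BghiP in each tissue at the high dose. A slope on dose was called for 0 Hox genes in each tissue, where 0.239% of all liver probes and 0% of lung and forestomach probes were called. The liver count of 62 probes depended on single mice and ran, leaving out each in turn, from 0 (without mouse 3, 17, 19 or 20) to 239 (without mouse 1). At D3 in liver, 29 probes were called without mouse 1, with 0 Hox genes among them. At an unadjusted p under 0.05 there were 0 Hox genes at each dose in lung, 1 at D1 and 0 at D2 and D3 in liver, and 0, 1 and 0 at D1, D2 and D3 in forestomach. Over all probes tested the share at that level was 2.22%, 3.4% and 4.81% in lung, 3.03%, 4.15% and 12.1% in liver and 9.37%, 3.65% and 1.5% in forestomach. The SE of a dose difference was 0.10 to 0.52 in lung, 0.07 to 0.17 in liver and 0.12 to 0.72 in forestomach. These SEs come from a model without slide and limit the size of change that it could show with 5 mice per group. With slide as a block no Hox gene was called either.

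In lung the lowest unadjusted p at D3 was that of Hoxa3. Its values were 0.28, 0.52, 0.58, 0.61 and 0.82 at D0 and 0.51, 0.57, 0.77, 0.82 and 1.26 at D3. The groups overlapped, and the difference was 0.23 ± 0.13 (adjusted p = 0.998). Hoxa5 in lung was 1.42, 1.51, 2.05, 2.10 and 2.52 at D0 and 1.64, 1.68, 1.75, 2.10 and 2.14 at D3. The D3 values of Hoxa5 lay within the vehicle range, with a difference of -0.06 ± 0.22 (adjusted p = 0.998). Hoxb2 (0.25 ± 0.16) and Hoxa7 (0.31 ± 0.25) followed Hoxa3 in order of p.

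In liver Hoxa9 had the lowest unadjusted p at D3, with values of -0.44, -0.43, -0.36, -0.32 and -0.24 at D0 and -0.75, -0.59, -0.47, -0.43 and -0.38 at D3. All 5 D3 values lay below the vehicle mean but the groups overlapped, and the difference was -0.17 ± 0.091 (adjusted p = 0.487). Hoxb4 gave 0.14 ± 0.13 (adjusted p = 0.715). The liver gene under an unadjusted p of 0.05 was Hoxa7 at D1, at -0.25 ± 0.12. Hoxa5 was not tested in liver, where no array was above background.

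In forestomach Hoxb7 had the lowest unadjusted p at D3. Its values were -0.75, -0.16, 0.26, 0.68 and 0.89 at D0 and 0.34, 0.35, 0.56, 0.71 and 1.23 at D3. The vehicle group was the wider and held values on both sides of 0, and the difference was 0.45 ± 0.34 (adjusted p = 1). Hoxa2 (0.17 ± 0.14), Hoxb3 (0.18 ± 0.17) and Hoxa5 (0.07 ± 0.20) had an adjusted p of 1 as well at D3, and Hoxa2 at D2 had 0.30 ± 0.14 (adjusted p = 0.998). At D1 19 of the 21 members were below the vehicle mean (median -0.25), with Hoxc5 at -0.86 ± 0.72 and Hoxc6 at -0.84 ± 0.65. The lowest unadjusted p at D1 was that of Hoxa9, which went the other way at 0.71 ± 0.34 (adjusted p = 0.535). Members above the vehicle mean numbered 18 at D2 (median 0.15) and 17 at D3 (median 0.13). Beside this, the glandular markers were above 2 on 2 of 5 arrays at D0, 4 of 5 at D1, 4 of 5 at D2 and 3 of 5 at D3, and their part in the forestomach values was not tested. Members of a tissue share the same 5 vehicle arrays at every dose. With the mean of the glandular markers as a covariate, chosen after the data had been seen, 0 Hox genes were called at D1, D2 and D3. None of the cofactor, retinoic acid, Polycomb, Trithorax or flanking genes was called at any dose or for a slope.

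**Figure D5:**
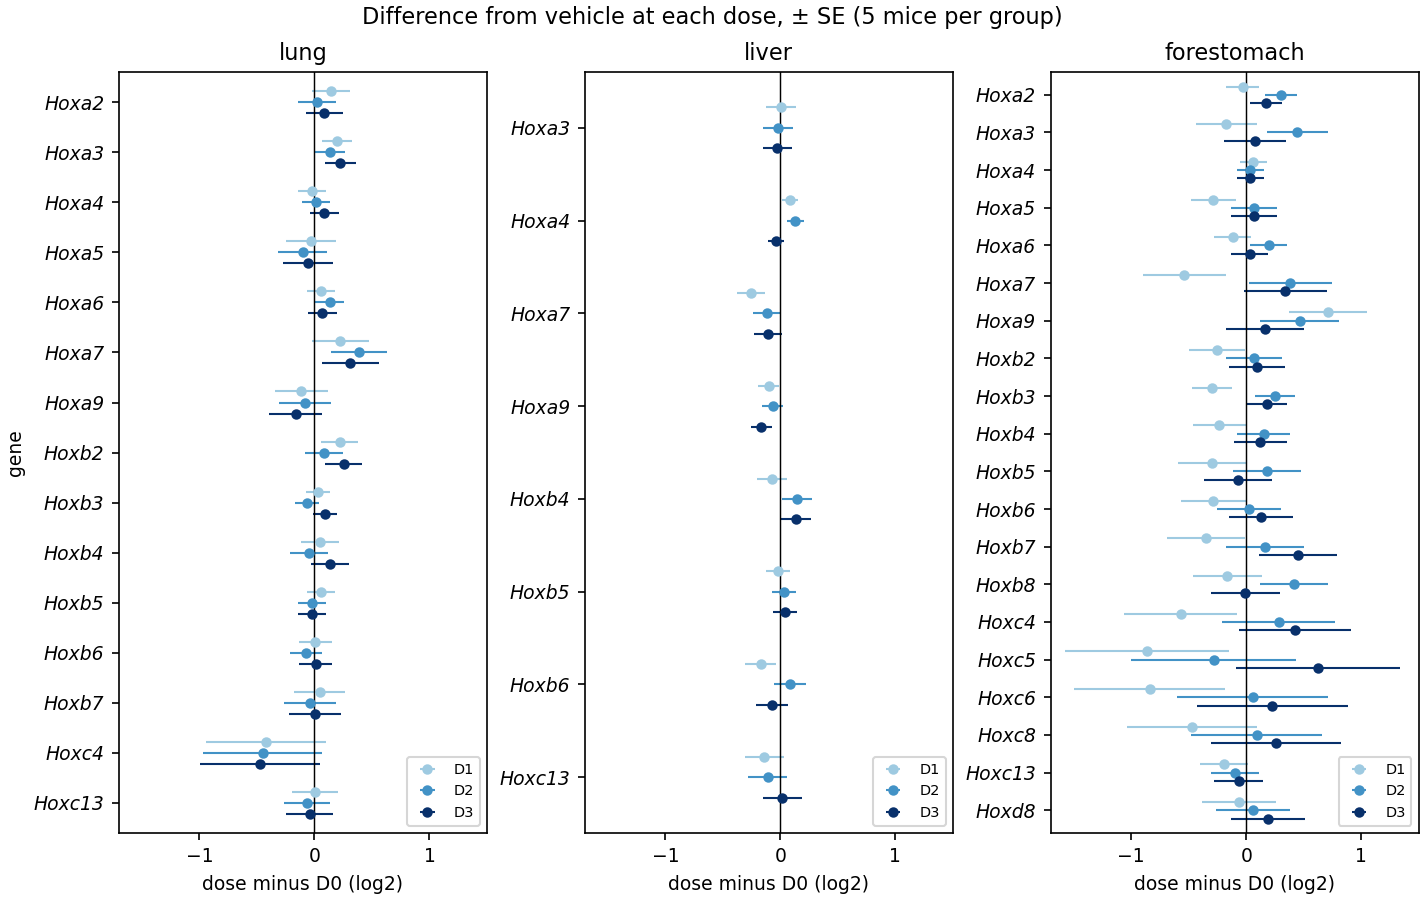
Difference in log2 ratio from the vehicle group ± SE for tested Hox genes at D1, D2 and D3 (the low, middle and high dose, 5 mice per group) in lung, liver and forestomach. No difference passed the test, the SEs run up to 0.72 in forestomach, and the D1 forestomach differences of Hoxc5 and Hoxc6 lie at -0.86 and -0.84.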

How the data were processed

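RNA of 3 tissues from 20 mice was measured on 60 two-colour oligonucleotide arrays, with tissue RNA in Cy5, reference RNA in Cy3 and no dye swap, so that a dye bias of a probe stays in its ratio but cancels between arrays. The labels gave each array its tissue, dose and mouse. Per the file headers, Feature Extraction (version 10.7.3.1) made the deposited scanner files, which hold median, background and processed signal intensity and quality flags per spot. The deposited series matrix holds log2 ratios, which the authors had normalised within each array by LOWESS. These correlated with the ratios computed here at r from 0.992 to 0.999.

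Each array held 62976 spots, of which 3671 control spots were left out. Log2 ratios of median Cy5 to Cy3 intensity, without background subtraction, were normalised within arrays with the loess method of limma (version 3.58.1, in R 4.3.3, files read with data.table, version 1.17.8). Background left in the signals draws ratios of dim probes towards 0. Outlier spots were set to missing (0.46% of values) and no value was saturated. Replicate spots were averaged to 55681 probes. A probe counted as above background on an array where at least 0.5 of its spots carried the scanner's flag. Symbols came through RefSeq accessions from a table of GRCm38.p6 for 26413 probes (47.4%). The file headers name mm9, so no probe coordinates were used. Sequences and motifs were read with Python 3.11.15 and figures drawn with matplotlib 3.10.9.

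Between tissues, a limma model of 12 groups was fitted to the 60 arrays, for the 33255 probes that passed background in Cy5 on 5 or more arrays of any tissue. Within a tissue, each dose was compared with D0, and a slope on dose fitted, for probes that did so on 5 or more of its 20 arrays. Tests were two-sided, with Benjamini-Hochberg adjustment over all probes tested. A call needed 1.5-fold or more and an adjusted p no higher than 0.05 (slopes had no minimum fold). The methods of the study name MAANOVA, for which limma stands here. A fold written "at least" sets the brighter tissue's mean Cy5 signal, scaled between arrays, against the dimmer tissue's higher of its own signal and the lowest signal above background. It is open to dye bias. On simulated data with 200 changed probes, 97% of changes of 1 on the log2 scale were recovered between lung and liver (33255 probes). At D3 the share was 90% in lung (31022 probes), 96% in liver (25893) and 63% in forestomach (25070). The simulated noise was independent between arrays, with no shift shared by a slide, and 200 true changes ease the adjusted p. These shares therefore do not measure what the dose tests could have missed. Array numbers limit the precision of each mean. The p-values rest on the spread between arrays within a group, each array from another mouse. That spread also holds any shift between slides. Between tissues the model treated the 60 arrays as independent.

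Mouse numbers mark the same animal in the 3 tissues per the labels. Deviations of the same mouse from its group means had a median correlation of 0.209 between lung and forestomach, 0.0539 between lung and liver and -0.00145 between liver and forestomach. Named with values were genes above background on all 20 arrays of a tissue, genes called where at least 15 of 20 arrays of the higher tissue were above background, the 3 with the lowest unadjusted p at D3 in each tissue, and Hoxa5. Values of some genes that fit this rule or the lists are not reported here. Other members named were chosen after their values were seen. The members and lists were chosen with earlier results of these data known. Alternatives were processed signals, the deposited ratios, normexp with an offset of 50, Aquantile between arrays, other filters, a variance trend, the second probe, vehicle arrays alone, slide or mouse as a block, and leaving out each mouse.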

Additional observations from a re-analysis of the deposited data

Results flagged for a closer look

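In 136 sets of 5 arrays, each a gene named between tissues at 1 dose in a tissue where it was tested, 4 held a value far from its neighbours by Dixon's criterion, and chance alone gives about 1 in 20. Hoxa4, Hoxa9, Hoxb8, Hoxc8, Hoxc13 and Hoxd8 were not searched. In forestomach at D0, Hoxb5 was 1.40 in mouse 5, where the next value was 0.58, and that array also had the highest fat cell marker level of the forestomach (5.42). In liver at D0, mouse 2 was high for both Hoxa7 (-1.28, next -1.76) and Hoxb6 (-1.13, next -1.58). In liver at D1, Hoxa3 was -1.22 in mouse 10, where the next value was -1.56. No Hox gene moved in opposite directions in every mouse of 2 tissues at D3.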

How the results depend on the processing

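Calls numbered 12 for lung minus liver, 13 for lung minus forestomach and 15 for liver minus forestomach, and all dose comparisons gave 0 Hox calls under every alternative run. With mouse as a replicate block the calls were 12, 13 and 15 in the same genes. Normexp, Aquantile (which leaves ratios unchanged by construction) and a variance trend gave 12, 13 and 15, the processed signals 16, 16 and 18, and vehicle arrays alone 11, 12 and 13. The deposited ratios gave 12, 13 and 15, with Hoxc6 in place of Hoxb7 between lung and liver. Leaving out each mouse gave 12 to 13, 12 to 13 and 15 to 16. Without a filter lung minus forestomach gave 21 calls (4 higher, 17 lower), the 8 gained being genes not above background in lung on 5 arrays. A filter on all 20 arrays gave 11, 9 and 11 of 14 genes. Some values turned sign. Hoxc4 lung minus liver was 1.51 on processed signals, 0.30 in vehicle arrays and -0.13 to 0.0946 leaving out each mouse. Hoxc5 lung minus liver was 0.19 in vehicle arrays. Hoxa7 lung minus forestomach was -0.0155 in vehicle arrays and -0.24 on the arrays with low glandular markers. Leaving out each mouse, Hoxa5 at D3 was -0.18 to 0.0916 in lung and -0.0081 to 0.14 in forestomach. The causes were not tested. Of the values of named genes, 562 between tissues and 105 for dose kept their direction and side of the threshold, 11 passed it only under an alternative, 6 no longer passed it and 8 turned sign. Hox genes dim in a tissue are limited by signal over background, so that a level on arrays at background is only a bound.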
